A study of Homo sapiens with 5 samples.

Results

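Fra-1 and E2F1 were each mapped by ChIP-Seq in MDA-MB-231 LM2 cells, and the strength of both factors was compared wherever their binding summits lay close together. A summit is the base with the most fragments in a peak. Each Fra-1 summit was paired with the nearest E2F1 summit when that summit lay within 250 bp. Of 17311 Fra-1 summits on chromosomes 1 to 22 and X, 10142 had such a partner (58.6%, 95% Wilson interval 57.9 to 59.3). They shared 10110 of the 36901 E2F1 summits, because 32 E2F1 summits were nearest to more than 1 Fra-1 summit. A pair was called inside when its Fra-1 summit lay between 2 kb before and 2.5 kb after any annotated transcription start site (TSS), and outside otherwise. This gave 3037 pairs inside and 7105 outside promoter windows, and left 7169 Fra-1 summits and 26703 E2F1 summits without a neighbour of the other factor.

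LM2 is a lung-metastatic subline selected from the human breast cancer line MDA-MB-231, and the cells were grown in standard medium with serum. The labels call them untreated, but the study also describes control-vector and shRNA-carrying LM2 cells as used for ChIP-Seq, so the libraries here may come from cells with a vector. Antibodies against Fra-1, E2F1 and MYC were used on chromatin of these cells, and each library was compared with the same input chromatin. There was 1 library per factor and the work rests on 1 cell line, so no value below has a replicate and no p-value is given. Wilson intervals cover counting error only, and the spread between chromosomes describes 1 library and is not a replicate error. After duplicate filtering the Fra-1 library held 12931227 tags, the E2F1 library 18056168 and the input 10758036. Peak lists hold no expression values, so the cell line could not be checked against marker genes.

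Fra-1, the product of FOSL1, is a basic leucine zipper protein of the Fos family. It binds DNA as a dimer with a Jun protein, on the AP-1 site TGACTCA, which reads TGAGTCA on the other strand. In breast cancer cells such as these, most AP-1 binding is known from enhancers. E2F1 is a winged-helix protein that binds with a DP partner, is held in check by the retinoblastoma protein, and is known from the promoters of cell cycle and DNA replication genes. It recognises the E2F site, searched here as TTTCCCGC, TTTCGCGC, TTTGCCGC or TTTGGCGC on both strands.

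Some of the strongest and the most unequal pairs serve as examples of sequences on which both factors were found. Most of those printed hold an AP-1 or ETS site, which is not the share among all such pairs. No AP-1, E2F or ETS site lay within 50 bp of the Fra-1 summit at PHF19, NTSR1, PLCH2, NAV1, FRMD4A and the pair nearest SERTAD1, all named further below. Each line below gives 101 bases of the reference genome (hg19, forward strand) centred on the Fra-1 summit, with AP-1 sites and, in the last 2 lines, ETS sites (CCGGAAG, or CTTCCGG on the other strand) in capitals. The first 5 pairs were strong in both lists, the next 3 were much stronger for Fra-1, and the last 2 were much stronger for E2F1.
NCEH1 promoter window, chr3:172429075-172429175: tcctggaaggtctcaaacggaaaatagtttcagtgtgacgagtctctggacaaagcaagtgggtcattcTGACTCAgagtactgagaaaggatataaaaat
SEPTIN9 promoter window, chr17:75319286-75319386: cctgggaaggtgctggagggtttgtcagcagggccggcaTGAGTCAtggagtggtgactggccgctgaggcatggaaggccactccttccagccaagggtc
DDX17 promoter window, chr22:38902385-38902485: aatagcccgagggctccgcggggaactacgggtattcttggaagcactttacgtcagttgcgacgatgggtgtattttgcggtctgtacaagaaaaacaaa
Intergenic, nearest gene KRT80, chr12:52541219-52541319: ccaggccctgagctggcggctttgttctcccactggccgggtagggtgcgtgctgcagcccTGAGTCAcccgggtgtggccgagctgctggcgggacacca
NIBAN2 intron, chr9:130281739-130281839: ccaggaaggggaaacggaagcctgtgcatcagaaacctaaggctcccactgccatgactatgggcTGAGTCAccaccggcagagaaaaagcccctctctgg
KMT2D exon, chr12:49443503-49443603: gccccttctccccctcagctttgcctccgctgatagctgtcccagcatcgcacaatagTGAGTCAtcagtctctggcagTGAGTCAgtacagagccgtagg
Intergenic, nearest gene RBBP8, chr18:20248082-20248182: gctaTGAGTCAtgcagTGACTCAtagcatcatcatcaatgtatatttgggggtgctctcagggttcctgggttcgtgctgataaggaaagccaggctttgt
PCLO intron, chr7:82434894-82434994: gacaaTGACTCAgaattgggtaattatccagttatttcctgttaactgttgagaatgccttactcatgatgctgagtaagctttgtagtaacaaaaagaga
POC5 promoter window, chr5:75012966-75013066: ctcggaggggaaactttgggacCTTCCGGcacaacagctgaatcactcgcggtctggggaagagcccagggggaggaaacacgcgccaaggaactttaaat
Intergenic, nearest gene C2orf42, chr2:70369965-70370065: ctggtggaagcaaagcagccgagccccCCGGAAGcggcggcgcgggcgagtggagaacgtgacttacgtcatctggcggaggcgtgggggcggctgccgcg

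Pileup and fold enrichment, the deposited measures of strength, were compared. Pileup is the number of overlapping fragments at the summit, after each ChIP library was scaled down to the smaller input library. Fold enrichment is that pileup over the local input background, with 1 added to both. Because the input was shared and shallow, the background recovered from the 2 values, which is approximate, amounted to only a few fragments, with quartiles of 0.957, 1.89 and 2.91 for Fra-1 in the pairs. The backgrounds recovered for Fra-1 and for E2F1 had a Spearman rank correlation (rho) of 0.848 over the 10142 pairs, so the 2 folds of a pair have nearly the same denominator. Both peaks of a pair also had to pass the caller's threshold, which cuts off the weak end of both scales.

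Within pairs, the strengths of Fra-1 and E2F1 rose together outside promoter windows, and were more weakly related inside. Over the 7105 outside pairs rho was 0.415 for fold enrichment and 0.545 for pileup. Over the 3037 inside pairs it was 0.100 for fold enrichment and 0.0661 for pileup, and over all pairs 0.292 and 0.353. The outside value exceeded the inside value in 20 of the 20 chromosomes that held at least 50 pairs of each kind, by 0.00409 to 0.62 for fold enrichment and by 0.298 to 0.698 for pileup. Over these chromosomes the SD was 0.112 inside and 0.0704 outside for fold enrichment, and 0.0839 and 0.0689 for pileup. For the strongest 10000 peaks of each list by q-value, which left 1095 pairs, rho outside was lower, at 0.154 for fold enrichment and 0.262 for pileup. Inside it was 0.0532 and 0.0998. That cut fell at unlike levels, with a lowest −log10 q of 11.5 for Fra-1 and 33.3 for E2F1. Among peaks with folds of at least 5, rho outside was 0.327 for fold enrichment and 0.563 for pileup. With −log10 q of at least 5 it was 0.393 and 0.537. Whether the lower values come from strength or from the narrowed range was not tested.

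**Figure D1:**
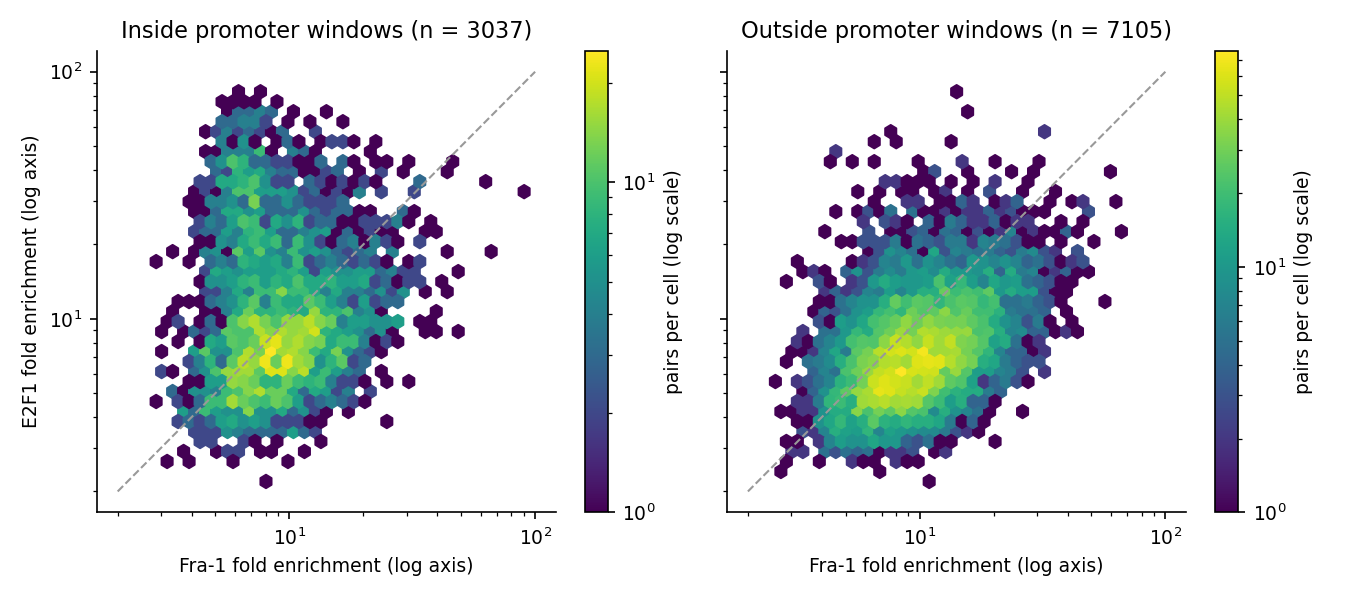
E2F1 fold enrichment against Fra-1 fold enrichment within pairs, on log axes, for 3037 pairs inside (left) and 7105 outside (right) promoter windows. Colour gives the number of pairs per hexagon on a log scale and the dashed line marks equal folds. The outside pairs form 1 rising cloud (rho 0.415), and the inside pairs hold in addition a column of pairs with low Fra-1 and high E2F1 (rho 0.100).

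The values depended on what was held constant. Taking the shared input into account lowered all 4. In a partial rank correlation given both recovered backgrounds, rho outside was 0.387 for fold enrichment and 0.399 for pileup. The corresponding values inside were 0.0205 and -0.011. Within the outside pairs, splitting by Fra-1 background gave fold correlations of 0.352, 0.351 and 0.326 from the lowest to the highest of 3 equal classes. Inside, the same split gave -0.188, 0.0514 and 0.279, so promoter pairs over the thinnest input ran in the opposite direction to those over the deepest.

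Distance from the TSS ordered the correlations more finely than the promoter window did. For the 1579 pairs whose Fra-1 summit lay within 500 bp of a TSS, rho was -0.0405 for fold enrichment and -0.104 for pileup. It was 0.253 and 0.295 for the 482 pairs at 501 to 1000 bp, and 0.374 and 0.472 for the 1117 pairs at 1001 to 2500 bp. From there on it changed little, with fold values of 0.428 at 2501 to 10000 bp (2860 pairs), 0.405 at 10001 to 50000 bp (3347 pairs) and 0.431 beyond 50000 bp (757 pairs). The low value inside promoter windows was thus that of the pairs next to the TSS, and pairs from about 1 kb onwards had values near those of distal ones. The neighbouring classes beyond 1 kb differed by less than the SD between chromosomes, 0.0738 to 0.125 for fold enrichment in these classes.

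E2F1 itself changed along this axis while Fra-1 hardly did. The median E2F1 fold enrichment of the pairs was 13.2 within 500 bp of a TSS, 8.51 at 501 to 1000 bp, 7.86 at 1001 to 2500 bp and 6.61 beyond 50000 bp. The median Fra-1 fold enrichment in the same classes was 8.18, 9.33, 9.48 and 9.48. As a result the median log2 ratio of E2F1 to Fra-1 fold went from 0.48 next to the TSS to -0.58 in the most distal pairs. Median GC content around the Fra-1 summit fell with it, from 57.7% to 44.3%, and its part in the result was not tested beyond the values below.

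**Figure D2:**
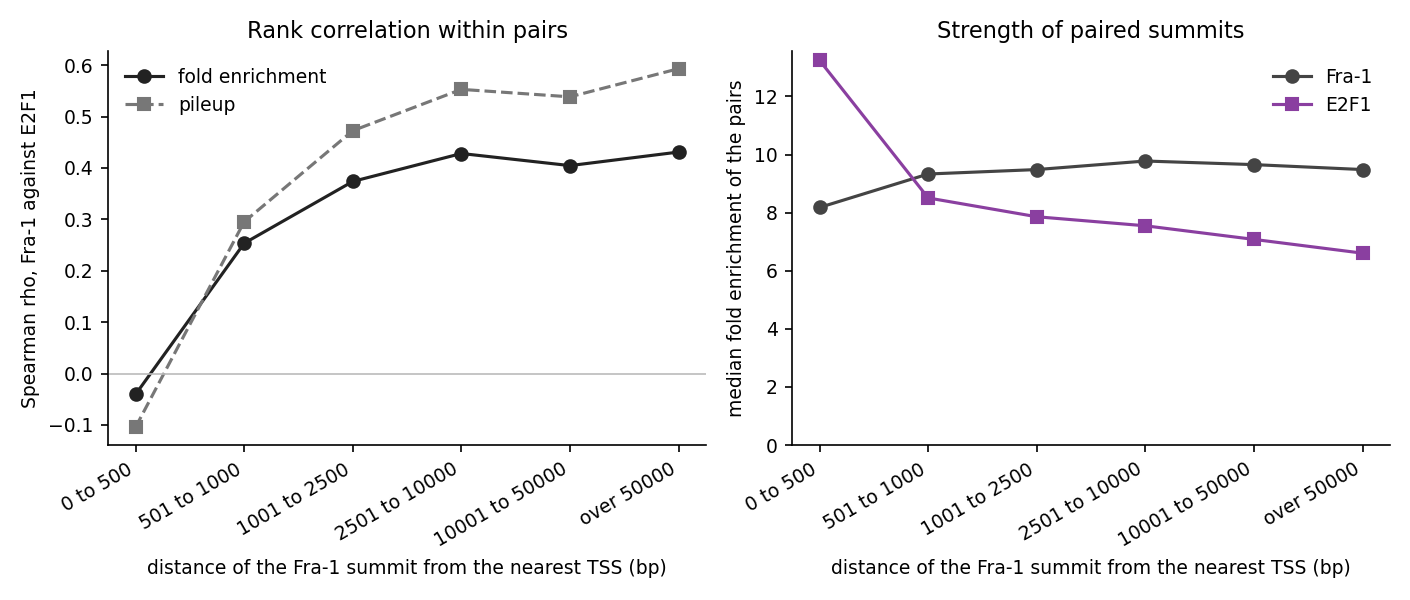
Left, Spearman rho between Fra-1 and E2F1 within pairs, for fold enrichment (circles) and pileup (squares), in 6 classes of distance from the Fra-1 summit to the nearest TSS. Right, median fold enrichment of both factors in the same classes; rho was -0.0405 and -0.104 within 500 bp of a TSS, where the E2F1 median was 13.2, and 0.431 and 0.593 beyond 50000 bp, where it was 6.61.

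Inside and outside pairs also differed in level. Fra-1 fold enrichment had a median of 8.76 inside (quartiles 6.52 and 12.2) and 9.72 outside (7.16 and 13.6). E2F1 fold enrichment had a median of 9.68 inside (6.51 and 18.3) and 7.21 outside (5.44 and 10.1). The median log2 ratio of E2F1 to Fra-1 was 0.02 inside and -0.45 outside, and its quartiles, -0.57 and 0.98 inside and -0.88 and 0.03 outside, overlapped widely. In pileup, the median was 21 fragments for Fra-1 and 26 for E2F1 inside, and 28 and 20 outside.

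When the inside pairs were ranked by Fra-1 fold and cut into deciles (10 equal classes), the median E2F1 fold was 7.41 in the lowest decile, 10.6 in the fourth, 8.12 in the fifth and 13.6 in the highest. It did not follow Fra-1 steadily. Its upper quartile was largest, at 26.4, in the second-lowest decile, where the median Fra-1 fold was 5.87. Outside, the E2F1 median climbed from 5.41 in the lowest to 8.16 in the eighth and 12.1 in the highest decile. Pairs in which both peaks belonged to the top decile of their own whole list numbered 43 inside and 28 outside. Inside, E2F1 was in its top decile in 10.8% of pairs with a top-decile Fra-1 peak (interval 8.12 to 14.2) and in 13.3% of the others (12 to 14.6). Outside, these shares were 2.46% (1.71 to 3.54) and 0.754% (0.564 to 1.01).

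**Figure D3:**
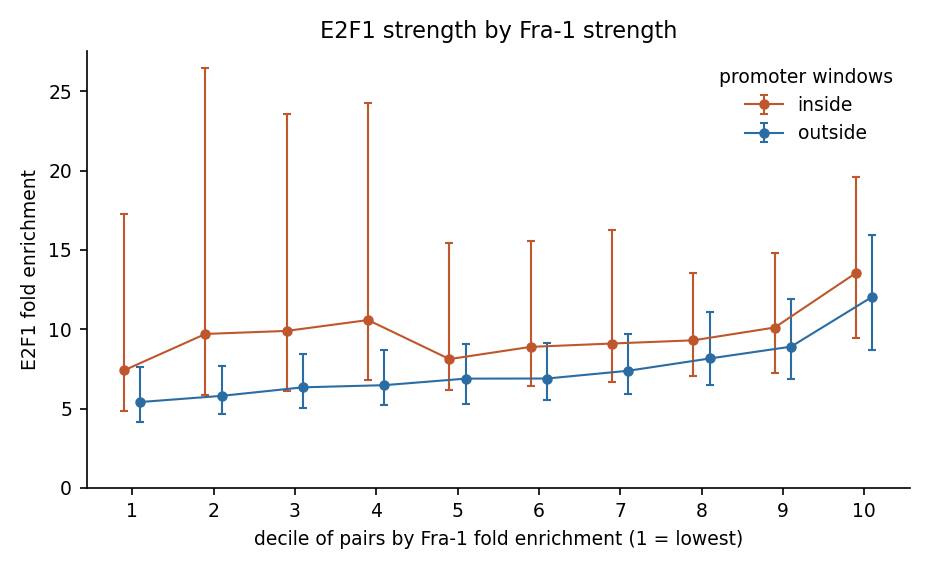
Median E2F1 fold enrichment (points) with its quartiles (bars) in deciles of the pairs ranked by Fra-1 fold enrichment, inside and outside promoter windows. The outside medians climb from 5.41 to 12.1; the inside medians vary between 7.41 and 13.6 with upper quartiles of up to 26.4.

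Ranking the inside pairs by E2F1 showed where the relation turned. The median Fra-1 fold was 6.89 in the lowest decile by E2F1, 10.9 in the sixth, and 7.3 in the highest, whose median E2F1 fold was 42.3. The Fra-1 pileup there was 12 fragments, against 25 in the lowest decile. An AP-1 site lay within 50 bp of the Fra-1 summit in 20.7% of these strongest-E2F1 pairs, against 49.3% to 55.9% in the lowest 7 deciles. Promoter pairs with the strongest E2F1 thus mostly lacked an exact AP-1 site, and their Fra-1 peaks were low in pileup. In fold enrichment these Fra-1 peaks (quartiles 6.07 and 9.9) were not below those of the lowest decile. Outside, no such turn was seen: Fra-1 medians went from 6.96 to 14.1 along the deciles of E2F1, and the AP-1 share stayed between 48.7% and 53.4%.

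Whether the Fra-1 summit had an AP-1 site divided the promoter pairs. The 1460 inside pairs with a site had a rho of 0.32 for fold enrichment and 0.364 for pileup. The 1577 inside pairs without one had -0.00229 and -0.117. The SD over chromosomes was 0.113 and 0.129 in the fold values. Outside, the split was narrower, with fold values of 0.472 for 3658 pairs with a site and 0.375 for 3447 without.

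Base composition and MYC divided them too. By CpG content around the summit (the observed over expected ratio, in 3 equal classes), rho of fold inside was 0.359 and 0.36 in the lower classes and -0.149 in the highest. By GC content it was 0.31, 0.14 and -0.108. The 514 inside pairs whose Fra-1 peak also overlapped a MYC peak had a rho of -0.224, and the 2523 others 0.152. Outside, every one of these classes was between 0.386 and 0.451. The promoter pairs that resembled distal ones were therefore those in CpG-poor sequence, with an AP-1 site or away from the TSS, features that go together and were not separated from each other.

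E2F1 strength followed GC content within the pairs, and Fra-1 strength did not. The rho of E2F1 fold with GC content around the Fra-1 summit was 0.457 over all pairs and 0.514 inside, and that of Fra-1 fold was 0.0331 and -0.0122. Given GC content, an adjustment chosen after seeing the data, the partial rank correlation of the folds was 0.124 inside and 0.414 outside. Peak width went with the fold of its own factor, with rho 0.531 for Fra-1 and 0.618 for E2F1. Given the widths of both peaks, also chosen after seeing the data, the partial rank correlation inside was 0.314 for fold enrichment and 0.278 for pileup, well above the unadjusted 0.100 and 0.0661. Outside it was 0.465 and 0.588. The outside value remained the higher for both measures, but the low inside values did not hold at equal width. Inside, width had a rho of 0.548 with fold for Fra-1 and 0.702 for E2F1. Adjusting for width thus also takes out part of the strength itself, and a role of width was not tested.

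The paired summits lay close together, closer outside than inside. The median distance was 30 bp over all pairs, 38 bp inside and 28 bp outside. Summits within 25 bp of each other made up 38.8% of inside pairs (37.1 to 40.6) and 46.9% of outside pairs (45.7 to 48). Inside, the fold correlation went down with distance, from 0.287 for summits 0 to 25 bp apart to 0.0989 at 26 to 100 bp and -0.0394 at 101 to 250 bp. Outside, it went from 0.512 to 0.356 and 0.361. The E2F1 peaks of the inside pairs were also broader the farther their summit was from that of Fra-1, with a median width of 269 bp at 0 to 10 bp and 639.5 bp at 101 to 250 bp.

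Where both summits could be set against a single AP-1 site, the site lay nearer the Fra-1 summit in most pairs. Of the pairs, 4953 had exactly 1 AP-1 site between 100 bp before the first and 100 bp after the last of their summits. Its centre was a median of 20 bp from the Fra-1 summit (quartiles 9 and 37) and 38 bp from the E2F1 summit (16 and 70). It was nearer the Fra-1 summit in 70.4% of 4881 unequal cases (69.1 to 71.7), and in 85.3% (83.4 to 87.1) of those with summits more than 50 bp apart. The E2F site gave the opposite order: in 115 pairs with a single E2F site, it lay a median of 62.5 bp from the Fra-1 summit and 39.5 bp from the E2F1 summit, and it was nearer the Fra-1 summit in 36.3% of 113 cases (28 to 45.5).

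**Figure D4:**
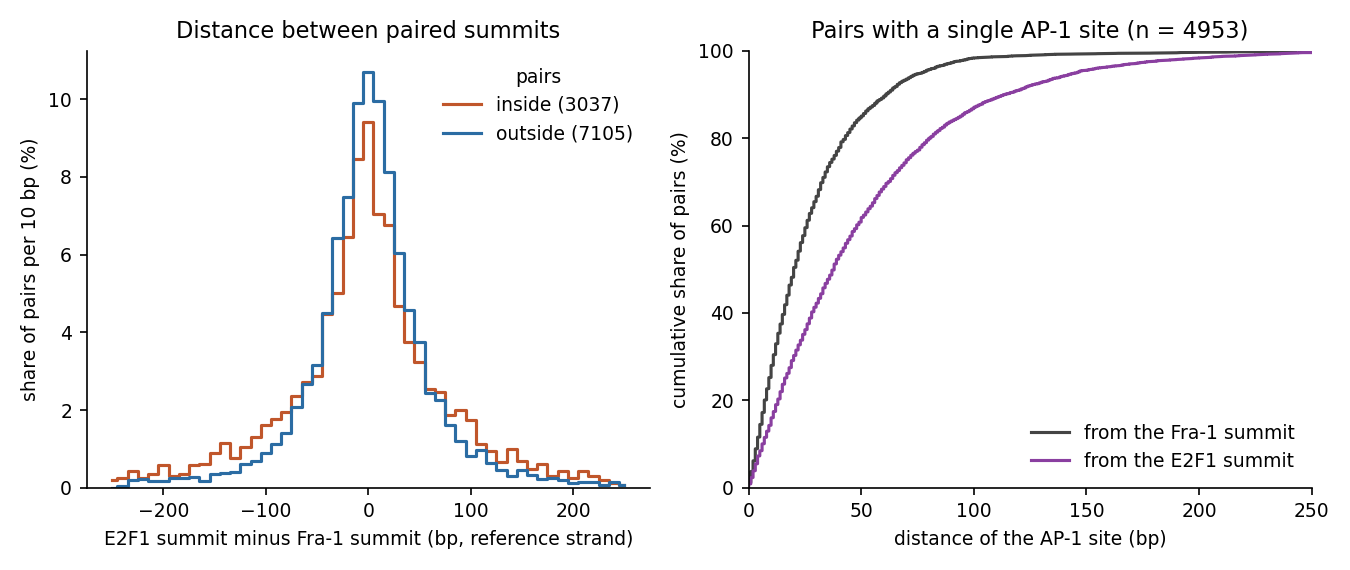
Left, share of pairs per 10 bp of signed distance from the Fra-1 to the E2F1 summit, inside and outside promoter windows; the median absolute distance was 38 bp inside and 28 bp outside. Right, cumulative share of the 4953 pairs with a single AP-1 site by the distance of that site from the Fra-1 summit (median 20 bp) and from the E2F1 summit (median 38 bp).

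With more AP-1 sites within 50 bp of the Fra-1 summit, Fra-1 was stronger and E2F1 was not. Inside, E2F1 was weaker at pairs with a site, with a median fold of 9.01 against 10.5 without one. Inside, the median Fra-1 fold was 7.58 for 1577 pairs without a site, 9.91 for 1325 with 1 and 16.3 for 135 with 2 or more. Outside, it was 8.65 for 3447 pairs, 10.4 for 3236 and 15.1 for 422. The median E2F1 fold over the same steps was 10.5, 8.89 and 9.85 inside, and 7.23, 7.12 and 7.35 outside. The KMT2D and RBBP8 sequences above, each with 2 AP-1 sites, are examples of pairs with high Fra-1 and low E2F1.

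The ETS site and the GC box at the Fra-1 summit went with E2F1 mainly inside promoter windows, and the E2F site went with it in both positions. The 104 inside pairs with an ETS site, the element of the ETS family that is common in CpG-rich promoters, had a median E2F1 fold of 28.1, against 9.47 without one, and a Fra-1 fold of 7.32 against 8.82. The 26 inside pairs with an E2F site had a median E2F1 fold of 19.4 against 9.67. A GC box (GGGCGGGG), bound by SP and KLF proteins, was found in 101 inside pairs with an E2F1 median of 21.6, against 9.47 without one. Outside, the differences were smaller for the ETS site and the GC box. The median E2F1 fold was 7.66 with and 7.2 without an ETS site (76 pairs with one), and 9.14 and 7.19 for the GC box (33 pairs). For the E2F site it was 13 and 7.18 (24 pairs). A pair with an E2F site had the higher E2F1 fold in 72.4% of comparisons with a pair without one, against 72% inside. The TEAD core GGAATG, the element of the TEAD proteins that work with YAP, was found in 14% of paired Fra-1 summits (13.3 to 14.7) and 5.45% of the windows 2 kb away, and E2F1 fold was 7.65 with it and 7.7 without. Both strands were searched, and an ETS and an E2F match may overlap. E2F1 fold followed GC content, and the part of base composition in these differences was not tested. At paired inside Fra-1 summits the E2F pattern was found in 0.856% and the same pattern spelled backwards in 0.56%. The CRE (TGACGTCA), also searched, was found in 32 inside pairs with a median E2F1 fold of 25.1, against 9.63 without it.

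Among the pairs strong in both lists, the NCEH1 promoter ranked first inside. NCEH1 hydrolyses cholesterol esters; its pair lay 117 bp from the TSS, with a Fra-1 pileup of 64 and fold of 29.7 and an E2F1 pileup of 100 and fold of 44.7, at summits 231 bp apart. At SEPTIN9, a septin of the cytoskeleton, folds were 44.5 and 44.6 with pileups of 78 and 88, and the summits were 85 bp apart. At DDX17, an RNA helicase, the Fra-1 fold was 21.4 and the E2F1 fold 52.8, with no exact AP-1 site in the window. PHF19, a Polycomb accessory protein, had 21.4 and 43.1, and PLEC, which encodes the cytolinker plectin, had 24.3 and 42.9. All 5 were at or above the 96th percentile of fold enrichment in both lists, which is how they were chosen.

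Outside, the strongest pair lay in an intron of NTSR1, the neurotensin receptor gene. Its Fra-1 pileup was 98 with a fold of 33.1, and its E2F1 pileup 100 with a fold of 56.3. The intergenic pair 38264 bp from KRT80, a keratin gene, had folds of 31.3 and 55.9. Pairs in introns of PLEC (31.9 and 44.4), NIBAN2 (23.3 and 40.3) and PLCH2, a phospholipase C gene (30.5 and 40.1), came next. These pairs were chosen by percentile within each list, and a given high percentile was a higher fold in the E2F1 than in the Fra-1 list.

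The pairs most tilted to either factor were chosen by the ranking for being strong in one list and weak in the other. Of these, 4 of 5 for Fra-1 and 3 of 5 for E2F1 lay outside promoter windows, as did 7105 of all 10142 pairs. Groups of 5 are too small to tell from that share. The KMT2D pair, in an exon of this histone methyltransferase gene 1001 bp from a TSS, had a Fra-1 fold of 24.9 (pileup 34) and an E2F1 fold of 3.82 (pileup 14). The intergenic pair whose nearest gene was RBBP8, 130092 bp away, had 19.3 and 3.15, and introns of NAV1, MACROD2 and PCLO had Fra-1 folds of 25.7, 17.6 and 16.8 with E2F1 folds of 4.24, 3.68 and 3.66. In the other direction, FRMD4A (intron), POC5, and the intergenic pairs nearest SERTAD1 and C2orf42 had Fra-1 folds of 4.49, 4.61, 4.66 and 4.65 with pileups of 8 to 12 fragments, and E2F1 folds of 44.6, 47.3, 46.2 and 45.3. In these 4 the E2F1 summit was 113 to 158 bp from that of Fra-1.

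Pairs at genes of known programmes were counted next. Of 20090 protein-coding genes, 9.78% had a pair in a promoter window, 13.0% a Fra-1 summit and 61.1% an E2F1 summit. A pair was present at 8 of 16 genes of the AP-1 family, 10 of 20 YAP and TEAD target genes, 8 of 19 MAPK feedback genes and 8 of 26 invasion and secreted factor genes. It was present at 3 of 28 E2F target genes of DNA replication, 4 of 24 E2F target genes of cell cycle control, and 1 of a set of 9 genes that the study singled out for the effect of their knockdown on metastasis in mice. The first 4 lists were above the share over all genes and the last 3 were near it, as counts without a test. In the first 4 lists, in the same order, 8, 10, 8 and 11 genes had a Fra-1 summit. Their pair counts thus largely follow their Fra-1 counts. Over all genes, 2617 had a Fra-1 summit and 1964 a pair. All of the replication and cell cycle genes had an E2F1 summit, and 5 and 4 of them had a Fra-1 summit.

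Within the AP-1 family, pairs were strongest at MAFF, a small Maf protein gene, with a Fra-1 fold of 19.7 and an E2F1 fold of 33.5, at JUNB (17.8 and 26.7) and at MAFK (27.2 and 23.7). At FOSL1, the gene of Fra-1 itself, the summits lay 3 bp apart and 5 bp from a TSS, with a Fra-1 fold of 12.6 (pileup 24), an E2F1 fold of 61.9 (pileup 122) and an AP-1 site. FOSL2 had 8.4 and 23.4, and MAFG 8.18 and 14.5. In all of these pairs but that of MAFK, E2F1 was the higher, but they were chosen for high percentiles in both lists. Stronger E2F1 summits lay in the promoter windows of JUNB (fold 61.3) and MAFG (20). At MAFF, MAFK, FOSL1 and FOSL2 the paired E2F1 summit was the strongest. Of the 8 genes with a pair, the weakest by the smaller of its 2 percentiles had 8.78 for Fra-1 and 4.27 for E2F1. The strongest E2F1 summit in the windows of that gene had a fold of 39.8.

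Among the invasion and secreted factor genes, MMP1, the interstitial collagenase, had folds of 11.5 for Fra-1 and 16.7 for E2F1 (pileups 23 and 98). IL11 had 8.82 and 45, CD44 16.1 and 7.56, ITGA2 5.87 and 5.91, and IL6 6.89 and 4.97. The strongest E2F1 summit in the promoter windows had a fold of 42 at CD44, 14.2 at ITGA2 and 8.16 at IL6. At MMP1 and IL11 it was the paired one. Among YAP and TEAD targets, F3 (tissue factor) had 12.2 and 19.4, AJUBA 13.4 and 14.8, WWTR1 13.4 and 14.4, YAP1 10.6 and 16.8, AXL 14.7 and 13.1, and CCN2 9.6 and 51.1. These 6 were chosen by the same folds, so their span does not describe the list. Of the 6, only CCN2 had its strongest E2F1 summit in this pair. The strongest had a fold of 64.3 at AXL and 50 at WWTR1. Over the pairs of all 10 YAP and TEAD targets with one, Fra-1 values spanned 5.88 to 20.3 and E2F1 values 4.7 to 51.1.

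Of the MAPK feedback genes, DUSP6, a phosphatase that inactivates ERK, had the strongest pair (15.1 for Fra-1 and 51.9 for E2F1). DUSP5 had 11.1 and 28.8, SPRED2 10.5 and 17.3, SPRED3 7.6 and 34.7, ERRFI1 7.24 and 20.5, and SPRY1 6.89 and 22.4. E2F1 fold was above Fra-1 fold at each of these 6. They were chosen for high percentiles in both lists, and a given high percentile was a higher fold for E2F1. Of the 8 genes with a pair, only the weakest by the smaller of its 2 percentiles had the lower E2F1 fold in that pair (5.02 for Fra-1 and 4.25 for E2F1). The strongest E2F1 summit in the windows of that gene had a fold of 32.3. Of the E2F targets, MYBL2 had 18.4 and 16.4, UHRF1 10.4 and 16.6, CDKN1A 9.24 and 28.6, AURKA 6.8 and 20.3, MCM7 8.97 and 14.8, and GINS1 6.08 and 32.5. At MYBL2, UHRF1, CDKN1A and MCM7 these pairs lay 1498 to 2396 bp from a TSS of the gene. At AURKA and GINS1 they lay 191 and 28 bp away. The strongest E2F1 summit in the windows had folds of 29.4 at MYBL2, 37.7 at UHRF1, 31.3 at CDKN1A, 42.5 at MCM7 and 53.2 at GINS1. At AURKA it was the paired one. Of the 9 genes singled out by the study, the one with a pair was SH3GL1, with 9.91 and 24.

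Whether a Fra-1 summit had an E2F1 partner went with its strength. The paired share was 39.4% in the lowest decile of Fra-1 fold (37.1 to 41.7) and 88.7% in the highest (87.1 to 90.1). It climbed both inside, from 53.4% to 90.5%, and outside, from 35% to 88.1%. Seen from E2F1 the share fell, from 38.4% (36.9 to 40) in the lowest decile of E2F1 fold to 12.6% (11.5 to 13.7) in the highest. Within each kind of position the share did not fall steadily. Inside, it was 17.6% in the lowest decile, between 9.13% and 14.4% in the others, and 11.1% in the highest. Outside, it was 56.2% in the lowest decile, climbed to 66.3% in the seventh, and was 47.7% (39.8 to 55.6) in the highest, which held only 149 outside summits. Over all E2F1 summits 12.3% had a Fra-1 summit within 250 bp inside and 59.3% outside.

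**Figure D5:**
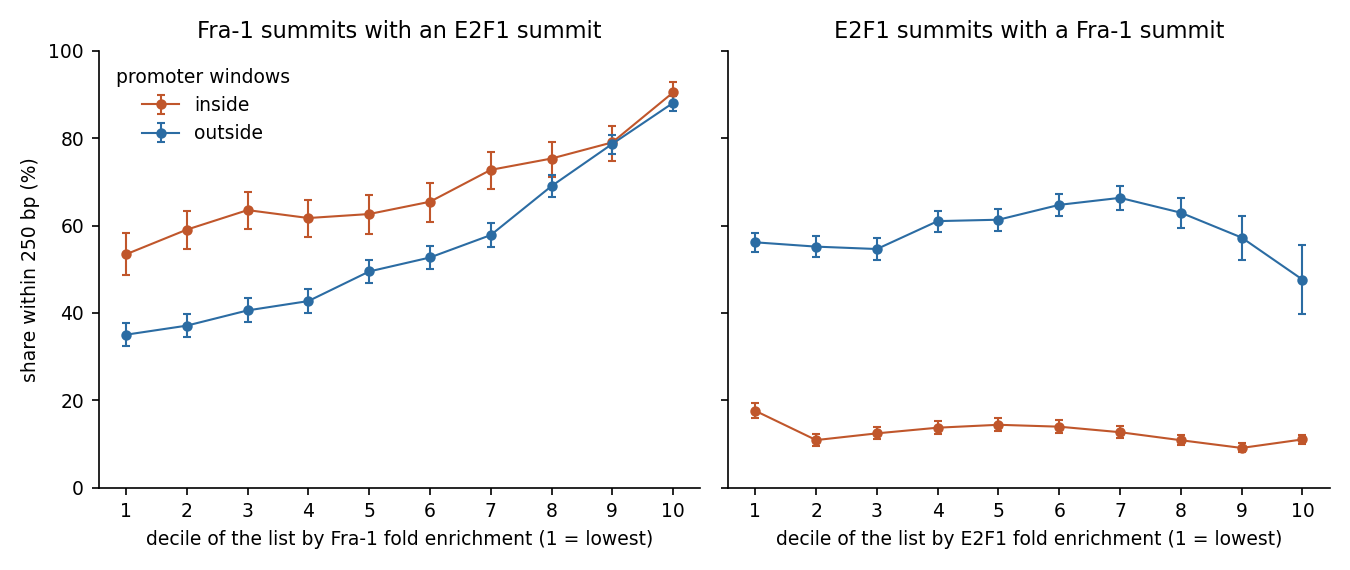
Share of Fra-1 summits with an E2F1 summit within 250 bp by decile of Fra-1 fold enrichment (left), and of E2F1 summits with a Fra-1 summit by decile of E2F1 fold enrichment (right), inside and outside promoter windows; bars are 95% Wilson intervals. The Fra-1 share climbs to 90.5% inside and 88.1% outside, and the E2F1 share is between 9.13% and 17.6% inside and between 47.7% and 66.3% outside.

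The 7169 unpaired Fra-1 summits were weaker, narrower, more distal and richer in AT than the paired ones. Their median fold was 7.16 (quartiles 5.71 and 9.2) against 9.35 (6.96 and 13.3), and a paired summit had the higher fold in 67.9% of all possible comparisons of 1 paired with 1 unpaired summit. Median peak width was 153 bp against 204 bp, and median GC content 42.8% against 49.3%. Of the unpaired summits 19.8% lay inside promoter windows (18.8 to 20.7), against 29.9% of the paired (29.1 to 30.8). They were not near misses: the median distance to the nearest E2F1 summit was 28266 bp, and 69.2% were more than 10000 bp away.

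Unpaired Fra-1 summits nevertheless held an AP-1 site more often. The share was 57.2% (56.1 to 58.4) against 50.5% (49.5 to 51.4) of the paired, with 1.8% and 1.76% in windows of the same length 2 kb to either side. The order was the same inside (56.6% against 48.1%) and outside (57.4% against 51.5%). The TEAD core went the other way, with 10.5% (9.81 to 11.2) against 14%. A MYC peak overlapped 1.83% of the unpaired Fra-1 peaks (1.54 to 2.16) and 8.79% of the paired (8.25 to 9.35).

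There were 548 unpaired Fra-1 peaks that overlapped an E2F1 peak with the summits too far apart, at a median of 425.5 bp. Of all Fra-1 peaks overlapping an E2F1 peak, 94.9% were paired (94.4 to 95.3), 90.2% inside and 97% outside. The strongest unpaired Fra-1 summit lay in an intron of IGFN1, with a fold of 39 and pileup of 64 and the nearest E2F1 summit 37278 bp away. The next lay between genes, nearest SEC14L1 (fold 38.1), and in an intron of SNX9, a sorting nexin gene (fold 34.7). None of these 3 had an exact AP-1 site within 50 bp.

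The 26703 unpaired E2F1 summits were mostly promoter summits, with 4891 outside promoter windows. Inside promoter windows lay 81.7% of them (81.2 to 82.1), against 30.1% of the 10198 with a Fra-1 summit within 250 bp (29.2 to 31), and 63% were within 500 bp of a TSS, against 15.6%. Their median fold was 9.63 against 7.68, and their median GC content 61.2% against 49.3%. The difference in fold depended on position: outside, unpaired E2F1 summits had a median of 6.69, against 7.16 in the paired. Inside, the medians were 10.9 and 9.67. In pileup the unpaired summits were the lower ones, with a median of 19 fragments against 22 over all, 22 against 26 inside and 15 against 20 outside, so which kind was stronger depended on the measure.

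An AP-1 site lay within 50 bp of 2.73% of unpaired E2F1 summits (2.54 to 2.93), with 1.64% in the windows 2 kb away, and of 36.9% of the paired (36 to 37.8). An E2F site was found at 2.09% of the unpaired (1.93 to 2.27) and 0.588% of the paired (0.457 to 0.757), against 0.262% and 0.123% in the side windows. The E2F pattern spelled backwards, which has the same base content, was found at 1.21% and 0.304% of the same summits. The excess at the summits was thus much smaller by that measure. An ETS site was found at 4.12% and 1.49%. Exact E2F sites were thus rare at E2F1 summits of either kind, 1.68% over all 36901, and 53.3% of Fra-1 summits had an AP-1 site. The strongest unpaired E2F1 summit, with a fold of 92.5 and pileup of 133, lay between genes in the promoter windows of RNU4-1 and RNU4-2, which encode the spliceosomal U4 RNA. The next was in the promoter window of IER2, an immediate early gene (fold 83.9), where the peak overlapped a Fra-1 peak and the nearest Fra-1 summit was 1118 bp away. The third lay between genes in the promoter window of TLCD3B (fold 82.3).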

How the data were processed

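Peak lists of Fra-1, E2F1 and MYC ChIP-Seq in LM2 cells (untreated per the labels) were used, 1 library per factor. The authors trimmed reads (Trimmomatic 0.27), aligned them to hg19 (Bowtie 0.12.5) and called peaks per library with MACS2 2.0.10 against 1 input. The deposited columns give the pileup signal at each summit, the fold (a ratio of pileup to local input background), −log10 p and q, and peak coordinates in bp. The authors' q-value threshold and duplicate filter shape which summits exist. Starting there, summits were paired (250 bp), placed against GENCODE v44lift37 (2 kb before to 2.5 kb after each TSS), and compared by Spearman's rho (SciPy 1.17.1). Exact motif matches on both strands within 50 bp were counted in the GRCh37 sequence, with side windows 2000 bp away. The scripts were tested on simulated data. Pairs, motifs and gene lists were chosen with earlier results of these data known. Named pairs were the 5 with the highest smaller percentile of fold inside and outside, and the 5 most tilted to each factor; named unpaired summits were the 3 strongest of each factor; named genes were up to 6 per list by the smaller percentile of their pair. An immunoprecipitation of another factor was not analysed here. Some of the pairs and genes that these rules select are not reported here. No test was run, since no factor had a replicate.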

Additional observations from a re-analysis of the deposited data

How the results depend on the processing

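No paired analysis was possible because each factor had 1 library. A share was called moved when it left its 95% Wilson interval, a correlation or ratio of medians when it moved by more than 1 SD over chromosomes. The outside correlation exceeded the inside one in 29 of 29 comparisons over the alternatives, by 0.1 to 0.582. The inside value changed sign: for fold enrichment it was -0.0339 with folds of at least 5 and -0.0301 with −log10 q as the strength, and for pileup -0.00606 with starts of protein-coding genes only, -0.0483 within 1 kb of any start and -0.011 given both backgrounds. Chosen after seeing the data, GC content as a covariate gave 0.187 and leaving out pairs with a MYC peak 0.203 for pileup inside, and the widths of both peaks as covariates gave 0.314 for fold enrichment and 0.278 for pileup inside. Outside, fold enrichment gave 0.327 with folds of at least 5 and 0.154 among the strongest 10000 peaks of each list, and pileup gave 0.262 there and 0.399 given both backgrounds. The paired share was 51.5% within 100 bp, 61.1% within 500 bp, 61.5% by peak overlap, 55.1% with −log10 q of at least 5, 51.5% with folds of at least 5, and 10.9% (1095 pairs) among the strongest 10000, where 94.2% of the unpaired E2F1 summits lay inside promoter windows. AP-1 shares of paired and unpaired Fra-1 summits were 33.6% and 38% within 25 bp, and 58.4% and 65.4% within 100 bp. The ratios of median fold, paired over unpaired, were 1.31 for Fra-1 and 0.797 for E2F1; over the other pairing distances, mutually nearest summits and the stricter peak thresholds they ranged from 1.29 to 1.36 and from 0.74 to 0.805. Outside promoter windows the E2F1 ratio was 1.07. The shallow input limits fold enrichment, and 1 library per factor limits every value.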
